A study of Mus musculus with 6 samples.

Results

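Small RNA reads of 26 or 27 nt that begin with U were examined in 6 libraries of whole mouse testis. The members were all distinct read sequences of 26 or 27 nt without an undetermined base that have T at position 1 as deposited, leaving out those that match an annotated miRNA gene in sense. There were 2646621 such sequences among 10333652 sequences of 24 to 32 nt, and each library held 111539 to 1143878 of them. The C57BL/6 testes came from Dnmt3L WT and Dnmt3L KO fetuses of 16.5 dpc (days post coitum), Dnmt3L WT and KO pups of 10 dpp (days post partum) and Miwi2 WT and KO pups of 10 dpp, and each WT was a littermate control of its KO. Each group was 1 library of pooled animals, 7 or 8 mice per pool at 16.5 dpc and 3 at 10 dpp. The labels do not describe the mutant alleles. With 1 library per group no test was possible, no spread between animals can be given, and the printed 95% intervals cover counting error only.

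piRNAs are germline small RNAs that PIWI proteins carry. MILI binds the shorter ones, of the size examined here, and MIWI2, the protein of the Miwi2 gene (Piwil4 in the annotation), binds longer ones in fetal germ cells and acts in the nucleus in the DNA methylation of transposons. Primary piRNAs begin with U. In the ping-pong cycle a PIWI protein cuts a target opposite position 10 of its guide, so the new piRNA has A at position 10 and overlaps the guide by 10 nt at the 5′ ends. DNMT3L has no catalytic activity of its own and assists de novo DNA methylation in germ cells. In the prepubertal testis many piRNAs come from the 3′ UTRs of mRNAs, while fetal piRNAs are rich in transposon sequence.

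The sequences that the results turn on are shown as deposited, with T for U, in capitals at position 1 and, where it is A, at position 10. The first 4 were chosen because they lead a class or a library, from the fetal antisense leader to a sequence that rose in the Miwi2 KO.
Antisense to the lincRNA Gm47906, most abundant in both fetal libraries: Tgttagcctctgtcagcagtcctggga
Unmatched, most abundant in 3 of the 4 postnatal libraries: Tcttagatcgatgtggtgctccggaa
Repeat-like, most abundant of its class: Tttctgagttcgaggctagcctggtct
Sense to Noct at 820, most abundant in the Miwi2 KO: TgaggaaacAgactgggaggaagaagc

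The next 4 were chosen because they differed most between KO and WT libraries of 10 dpp or, for the antisense one, are among the 2 most abundant of their class. The number after Noct is the first base of the match in its transcript.
Sense to Noct at 1377: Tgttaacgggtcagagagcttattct
Sense to Noct at 284: Tataaggttcccgtaacacagactgtt
Antisense to 4 noncoding genes: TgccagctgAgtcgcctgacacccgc
Sense to the 3′ UTR of Emc1: TtaaaactaAcagtctgagccttggtg

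A pair of reads from opposite strands shows the 10 nt overlap, here in capitals. The first is a repeat-like member, and the second is the most abundant read that overlaps it by 10 nt.
Member: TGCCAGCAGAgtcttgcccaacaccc
Partner: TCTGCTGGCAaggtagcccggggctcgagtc

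The rule also took in miRNAs with extra bases at the 3′ end, since those no longer match the miRNA gene in full. In the following sequences capitals mark the bases that match the gene and lower case the added bases.
miR-351-5p with 2 added bases: TCCCTGAGGAGCCCTTTGAGCCTGtt
miR-182-5p with 1 added base: TTTGGCAATGGTAGAACTCACACCGt

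The targeted genes gave too few members to check the mutations: Dnmt3l had 68 and 112 sense member reads in the fetal WT and KO and at most 2 in any postnatal library, and Piwil4 had 0 to 3 in every library. Such reads are fragments of piRNA size and not a measure of the mRNA.

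U-first reads of 26 to 27 nt were most abundant in the fetal testis and least abundant in the Dnmt3L KO of 10 dpp. Levels are given as RPM, the count per 10 to the power of 6 reads of the library. At 16.5 dpc the WT stood at 85753 RPM and the Dnmt3L KO at 91149 RPM. At 10 dpp they were 42597 RPM in the Dnmt3L WT, 14783 RPM in the Dnmt3L KO, 54640 RPM in the Miwi2 WT, and 50931 RPM in its KO. The Dnmt3L KO at 10 dpp lay below every other library. Its level was 0.347 times that of its WT (0.346 to 0.348), a log2 ratio of -1.53. Both WT libraries of 10 dpp, which come from different lines, differed by 1.28 times, and this served as the yardstick for library to library variation. Against it, the ratio of 1.06 for the Dnmt3L KO at 16.5 dpc and the ratio of 0.932 for the Miwi2 KO at 10 dpp were smaller than the difference between WT libraries. The Dnmt3L WT had 0.497 times as many at 10 dpp as at 16.5 dpc, counted as RPM. In whole testis, fewer germ cells and less RNA per cell cannot be told apart.

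The drop in the Dnmt3L KO at 10 dpp was uneven over classes of sequence. Reads sense to transcripts were at 0.226 times the WT level, antisense reads at 0.404, unmatched reads at 0.437 and repeat-like reads at 0.512. Repeat-like reads match at least 10 genes other than pseudogenes, so sequence repeated in pseudogenes can lie in the sense class. In the Miwi2 KO the repeat-like reads were 2.56 times the WT level (2.54 to 2.58), at 5740 against 2240 RPM. Antisense reads were 1.35 times the WT level there, while sense reads were at 0.857 times. The same ratios between both WT libraries were 1.20 for repeat-like, 1.26 for antisense and 1.30 for sense reads. The repeat-like rise in the Miwi2 KO was therefore larger than the WT difference, and the antisense one was close to it.

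Members were diverse. Of the distinct sequences of a library, 41.6% to 68.6% were read once. The 100 most abundant held 12.6% and 11.6% of member reads in Dnmt3L WT and Dnmt3L KO of 16.5 dpc, and 17.3% and 11.6% in the Dnmt3L WT and Miwi2 WT of 10 dpp. They held 34.7% in the Dnmt3L KO and 24.8% in the Miwi2 KO of 10 dpp, so both KO libraries of that age were more concentrated on few sequences. Thinned to 424288 member reads each, the libraries held 213157 and 229577 distinct sequences at 16.5 dpc in WT and KO, 173152 and 111539 in Dnmt3L WT and Dnmt3L KO at 10 dpp, and 188889 and 138711 in Miwi2 WT and Miwi2 KO.

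The label of MILI-sized piRNAs was checked against the first base and the make-up of the reads. U stood first in 71.96% and 73.08% of all non-miRNA reads of 26 to 27 nt at 16.5 dpc (WT and KO), 73.47% and 68.95% in Dnmt3L WT and Dnmt3L KO of 10 dpp, and 68.85% and 67.94% in Miwi2 WT and Miwi2 KO. Among reads of other small RNAs (snoRNA, rRNA and the like) it stood first in 29.1% to 39.6%. Part of the members began with miRNA sequence. Members whose first 20 bases lie in a miRNA gene made up 5.06% to 9.17% of member reads in 5 libraries and 28.01% in the Dnmt3L KO of 10 dpp. Their summed level hardly differed between the latter and its WT, at 4141 and 3908 RPM, while all other members fell from 38689 to 10642 RPM, or to 0.275 times. The printed miR-351-5p sequence had 138 RPM in the Dnmt3L WT of 10 dpp and 186 RPM in the KO, and the printed miR-182-5p sequence had 448 and 147 RPM.

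On either side of the chosen length the make-up changed. U-first reads of 24 to 25 nt had 56.4% to 86.8% miRNA starts, against 2.96% to 8.03% among U-first reads of 28 to 29 nt. U-first reads of 28 to 29 nt, the size of MIWI2-bound piRNAs, were at 69637 and 77717 RPM in the fetal WT and KO. At 10 dpp they were at 15724 and 3016 RPM in Dnmt3L WT and Dnmt3L KO, and at 38183 and 41381 RPM in Miwi2 WT and Miwi2 KO. In the Dnmt3L WT they were thus lower than the 26 to 27 nt reads by more at 10 dpp than at 16.5 dpc. The Miwi2 WT of 10 dpp showed less of this, with 38183 RPM beside 54640 RPM. These WT libraries also differed in size range: non-miRNA reads of 34 nt numbered 13017 in the Dnmt3L WT and 1318319 in the Miwi2 WT. In Dnmt3L KO and WT of 10 dpp, U-first reads numbered 234559 and 786182 at 26 nt and 12595 and 174239 at 29 nt. The part of size range in the differences of age and KO was not tested. Many members shared their 5′ end with a 28 to 29 nt read. Leaving out miRNA starts, 46.5% to 64.9% of member reads had such a read in the same library, with the highest share in the Miwi2 KO.

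A at position 10 was moderately frequent. At 16.5 dpc it was found in 28.73% of WT and 28.50% of Dnmt3L KO member reads. At 10 dpp it was found in 27.43% and 28.74% in Dnmt3L WT and Dnmt3L KO, and in 26.995% and 31.16% in Miwi2 WT and Miwi2 KO. The Miwi2 KO was the highest of the 6 libraries, 4.17 percentage points above its WT, against a difference of -0.43 points between the Miwi2 WT and the Dnmt3L WT. The median share of A over the other positions was 20.8% to 23.4%. Position 10 was not the richest: A was most frequent at position 5, at 35.99% to 43.1%, and position 10 ranked from 3 to 6 among 25 positions.

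The share differed with length and first base. U-first reads of 28 to 29 nt had A at position 10 in 32.997% to 36.6%, and U-first reads of 24 to 25 nt in 12.0% to 16.8%. Reads of 26 to 27 nt with another first base had it in 39.9% and 39.8% in the fetal WT and KO and in 24.6% to 32.6% at 10 dpp. Within the members the antisense reads of 10 dpp held more of it, 33.5% and 38.2% in Dnmt3L WT and Dnmt3L KO and 32.1% and 37.2% in Miwi2 WT and Miwi2 KO, while at 16.5 dpc they held 28.8% and 29.6%. Counted over distinct sequences the shares lay between 25.3% and 27.04% in every library, and the Miwi2 KO exceeded its WT by 0.71 points on that count. At 16.5 dpc the sign of the small KO difference, -0.23 points over reads, turned to 0.77 points over distinct sequences and to 0.66 points without miRNA starts.

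The share of reads with a partner differed more between libraries than A at position 10. Among member reads that matched transcripts, outside other small RNAs, 41.7% and 43.8% had a read of 24 to 32 nt on the opposite strand with a 10 nt overlap of 5′ ends in the fetal WT and KO. At 10 dpp the shares were 7.83% in the Dnmt3L WT, 20.7% in the Dnmt3L KO, 8.74% in the Miwi2 WT, and 29.9% in its KO. The overlap of 10 nt ranked 1 among overlaps of 1 to 20 nt in each of the 6 libraries. The median share over the other overlaps was 26.4%, 29.3%, 3.54%, 8.11%, 3.78% and 14.8% in the same order. Both KO libraries of 10 dpp thus had a higher share than their WT although they were sequenced less deeply, and both WT libraries differed by 0.91 points. Shares at the other overlaps were higher in these KO libraries too. Of the shares summed over overlaps of 1 to 20 nt, 10 nt held 8.00% and 7.40% in the fetal WT and KO. At 10 dpp it held 9.91% and 11.5% in Dnmt3L WT and Dnmt3L KO, and 10.2% and 9.36% in Miwi2 WT and Miwi2 KO. By that measure the Miwi2 KO lay below its WT, and the fetal libraries lay below the postnatal ones. The part of depth and of repeated sequence was not tested.

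The member of the printed pair was among the 3 largest rises in the Dnmt3L KO of 10 dpp. Its higher level in that KO therefore follows from the choice, and the pair does not stand for the shares above. The repeat-like member had 41.3 and 46.3 RPM in the fetal WT and KO. At 10 dpp it had 1 read in the Dnmt3L WT, 117 in the Dnmt3L KO, 8 in the Miwi2 WT, and 564 in its KO, so both KO libraries were higher. Its 32 partners summed to 12.6 and 16.5 RPM in the fetal libraries, 0 and 0.14 RPM in Dnmt3L WT and Dnmt3L KO of 10 dpp, and 0.22 and 1.75 RPM in Miwi2 WT and Miwi2 KO. The printed partner had 236 and 338 reads in the fetal libraries and 0, 0, 10 and 30 in the postnatal ones. In the Dnmt3L KO of 10 dpp the member was thus read with next to no partner.

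Head to tail was not the most frequent distance for next reads that begin with U. A U-first read began directly after the 3′ end of 5.28% to 8.82% of matched member reads, against a median of 4.38% to 7.63% for distances of 2 to 50 nt, and distance 1 ranked from 2 to 18 among 50. With next reads of any first base it ranked 1 in the Dnmt3L KO of 16.5 dpc, at 27.26% against 27.15% for the distance after it, and from 8 to 35 in the other libraries. The base after the 3′ end of sense members was U in 21.5% to 25.6%, against a median of 22.0% to 25.2% for the next 9 positions.

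Strand differed mainly with age. Of the members in the sense or antisense class, 25.8% and 26.04% of reads were antisense in the fetal WT and KO. Members that matched genes in both orientations were counted as sense, so the antisense shares leave them out. At 10 dpp 5.19% were antisense in the Dnmt3L WT, 8.92% in the Dnmt3L KO, 5.02% in the Miwi2 WT, and 7.70% in its KO. The WT libraries of 10 dpp differed by 0.17 points, less than the 3.74 points of the Dnmt3L KO and the 2.68 points of the Miwi2 KO. The sense class held 22.1% and 20.2% of member reads at 16.5 dpc and 29.7% to 46.3% at 10 dpp. A further 41.2% to 67.9% of member reads matched no transcript, and the genome outside transcripts was not analysed here. Of the unmatched reads, leaving out miRNA starts, 3.62% to 7.33% had their first 24 bases in a transcript. The printed unmatched sequence had 1053 and 365 RPM in Dnmt3L WT and Dnmt3L KO of 10 dpp, and 514 and 797 RPM in Miwi2 WT and Miwi2 KO. All members with its first 20 bases summed to 1847, 739, 1803 and 2545 RPM in the same order. Their source was not determined, and whether they are piRNAs was not tested.

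Among the sense members, those of the postnatal WT libraries lay mostly in the 3′ UTRs of mRNAs. Protein coding genes took 85.1% and 86.2% of sense member reads in the Dnmt3L WT and Miwi2 WT of 10 dpp, against 46.2% and 45.7% in the fetal WT and KO. In the KO libraries of 10 dpp they took 63.9% (Dnmt3L) and 66.5% (Miwi2). Of the reads on protein coding genes, 79.8% and 74.1% lay in the 3′ UTR in the Dnmt3L WT and Miwi2 WT of 10 dpp, while 3′ UTRs were 48.5% and 48.3% of the length of the transcripts hit. In the fetal WT 49.3% lay in the 3′ UTR, close to the 47.5% of length. The 5′ UTR share was 14.4% and 12.2% in the fetal WT and KO, 2.85% and 12.3% in Dnmt3L WT and Dnmt3L KO of 10 dpp, and 3.83% and 15.01% in Miwi2 WT and Miwi2 KO. That increase came mainly from sequences that match Noct, most of whose sense reads also match other genes. Without the reads that match Noct the 5′ UTR share was 1.87% and 3.56% in Dnmt3L WT and Dnmt3L KO, and 3.02% and 3.91% in Miwi2 WT and Miwi2 KO.

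Noct encodes nocturnin, a circadian phosphatase related to deadenylases, and its longest transcript (9797 nt, chr3:51224447-51251644, plus strand, GRCm38) has its coding part at 7608 to 8702. Of the sense member reads on it, 99.9% lay in the long 5′ UTR and 9.1% matched no other gene, so they stand for a sequence shared with other transcripts and not for the coding mRNA. Noct had 465 and 341 RPM in the fetal WT and KO, 157 and 237 RPM in Dnmt3L WT and Dnmt3L KO of 10 dpp, and 171 and 1554 RPM in Miwi2 WT and Miwi2 KO. The Miwi2 KO was far above all other libraries, at 9.09 times its WT (8.87 to 9.31). The pseudogene Gm9864 (chr2:107595630-107600539) shares the most abundant Noct sequence and had 80.1 RPM in the Miwi2 WT, and 855 RPM in its KO. The unconfirmed gene Gm42860 (chr5:60803716-60807706) shares the printed sequence at 1377 and went from 103 to 609 RPM.

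The Noct sequence printed first lies at 820 to 846 of the transcript. It had 329 and 188 RPM in the fetal WT and KO, 34.0 and 84.8 RPM in Dnmt3L WT and Dnmt3L KO of 10 dpp, and 115 and 1597 RPM in Miwi2 WT and Miwi2 KO. It was the single most abundant member of the Miwi2 KO and 13.9 times its WT level there (13.5 to 14.3), and A stands at its position 10. All member sequences that match Noct in either strand made up 11.02% of member reads in the Miwi2 KO and 1.28% in its WT. Leaving them out, A at position 10 was at 29.8% in the Miwi2 KO and 26.8% in the WT, so most of the difference of 4.17 points remained.

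The 10 transcripts with the highest mean level included shared, fetal and postnatal ones. Others, such as Noct, were highest in the Miwi2 KO. D10Wsu102e (chr10:83360221-83488505), a gene whose longest transcript of 123179 nt carries 99.6% of its reads in the 3′ UTR, led with 814 and 899 RPM at 16.5 dpc and 459, 118, 487 and 402 RPM at 10 dpp in the order Dnmt3L WT, Dnmt3L KO, Miwi2 WT and Miwi2 KO. It was high at both ages. Gm35240 (a lincRNA, chr12:77553347-77569709) and Gm7968 (chr15:35589314-35591638) were fetal: Gm35240 had 361 and 327 RPM at 16.5 dpc and 0.42 to 6.8 RPM at 10 dpp. Gm42427 (chr5:44137980-44143271) had 283 and 344 RPM in the fetal libraries and 6.6 to 30.0 RPM later. Gm38194 (chr1:195321283-195323493) ranged from 39.8 RPM in the Dnmt3L KO to 314 RPM in the Miwi2 KO at 10 dpp. Gm42418 (chr17:39846958-39848788) overlaps ribosomal RNA sequence, only 45.0% of its 26 to 27 nt reads began with U, and 0.3% of its member reads matched no other gene.

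Abl2, which encodes a nonreceptor tyrosine kinase (chr1:156558786-156649568), was the clearest postnatal source among them. It had 11.8 RPM in each fetal library, 243 and 40.2 RPM in Dnmt3L WT and Dnmt3L KO of 10 dpp, and 280 and 158 RPM in Miwi2 WT and Miwi2 KO. Of its reads 97.8% lay in the 3′ UTR and nearly all matched Abl2 alone. Gabpb2, a subunit of a GA-binding transcription factor, and Klf13, a Krüppel-like transcription factor, were similar: Gabpb2 had 289 RPM in the Dnmt3L WT and 32.1 RPM in the KO, and Klf13 had 286 RPM in the Miwi2 WT, and 116 RPM in its KO. Both were among the 5 highest of a WT library of 10 dpp, with 96.7% and 98.9% of their reads in the 3′ UTR.

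Changes of single transcripts and sequences were called by size. A transcript with at least 200 sense member reads over both libraries was called where its absolute log2 ratio passed 1.52, the 95th percentile found between the WT libraries of 10 dpp across 1379 transcripts. For sequences with at least 100 reads the limit was 3.19. The background was the same rule over all non-miRNA reads of 24 to 32 nt, whose own limits were wider, 2.29 for transcripts and 5.97 for sequences, so the shares below are not at the same fold. The background includes the members.

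In the Dnmt3L KO at 16.5 dpc little changed. Of 957 transcripts 8 were called higher and 2 lower, with a median log2 ratio of -0.07, against 0.0355% higher and 0.0355% lower among 2818 transcripts of the background, whose median was -0.03. Of 5645 sequences 37 were called higher and 8 lower, against 0.00449% and 0.0269% of the background. The lower transcripts were Rprml, an intronless gene that resembles the cell cycle gene Reprimo, and Mbd6, a methyl-CpG-binding domain protein: Rprml had 301 WT reads and 96 KO reads, a ratio of RPM of 0.286 (0.225 to 0.361), and Mbd6 had 0.317 times. The highest was Adam12, a metalloprotease, with 1.5 RPM in the WT and 6.5 RPM in the KO, or 4.24 times (3.21 to 5.59). The fetal antisense leader at Gm47906 had 886 RPM in the WT and 630 RPM in the KO, which is no call. One repeat-like sequence in the 3′ UTR of D10Wsu102e had 24 WT reads and 1153 KO reads.

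In the Dnmt3L KO at 10 dpp most transcripts lost member reads. Of 710 transcripts 622 were called lower and 21 higher, and the median log2 ratio was -2.83. In the background 72.9% were called lower and 0.613% higher, with a median of -2.92, against 87.6% and 2.96% of the members. Of 1502 sequences 398 were called lower and 30 higher, against 0.497% lower and 0% higher in the background. Protein coding genes were 578 of the 622 lower transcripts and 1 of the 21 higher ones, out of 608 among the 710 compared. Among the 21 higher were 12 pseudogenes. Of the 398 lower sequences 20 were repeat-like, and of the 30 higher ones 5 were, out of 143 among the 1502 compared. The printed repeat-like sequence, with 229 RPM in the WT and 15.1 RPM in the KO, was called lower. It had 0.59 and 0.51 RPM in the fetal WT and KO, and 160 and 263 RPM in Miwi2 WT and Miwi2 KO. With TMM factors, where the limit was computed anew, 189 transcripts were lower and 62 higher, and 36 sequences were lower and 77 higher. With scaling to miRNA reads, again with its own limit, 585 transcripts were lower and 17 higher, and 302 sequences were lower and 17 higher. With sequences of 1 gene only, 2 transcripts were higher.

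The strongest falls in that library left next to no reads. Crybg3, a crystallin-related gene, had 248 WT reads and 1 KO read, and Sall1, a zinc finger transcription factor, had 229 and 2. Pctp (a phosphatidylcholine transfer protein), Tapbp (tapasin, which loads MHC class I) and Mdc1 (a DNA damage mediator) were next, with 9.2, 5.3 and 6.4 RPM in the WT and 0.17, 0.10 and 0.14 RPM in the KO. These falls were not confined to 3′ UTR sources, since 94.8% of the Crybg3 reads and 99.0% of the Sall1 reads lay in the coding part. The printed Emc1 sequence, from a gene of an ER membrane complex, had 413 WT reads and 4 KO reads, and 145 and 20 in Miwi2 WT and Miwi2 KO. It was read 0 times in both fetal libraries.

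The rises in the Dnmt3L KO of 10 dpp were led by 3 pseudogenes and 2 unconfirmed genes. Gm47654 (a processed pseudogene, chr14:14429177-14430245) had 34.5 and 67.3 RPM at 16.5 dpc in WT and KO, 1.1 and 10.8 RPM in Dnmt3L WT and Dnmt3L KO of 10 dpp, and 0.56 and 35.4 RPM in Miwi2 WT and Miwi2 KO. Both KO libraries of 10 dpp lay above both WT libraries. Gm48416 rose 9.21-fold (7.57 to 11.2) in the Dnmt3L KO and 61.9-fold (51.2 to 75.6) in the Miwi2 KO. Nearly all reads of these genes also matched other genes, so they cannot be assigned to one copy.

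In the Miwi2 KO at 10 dpp 97 of 1391 transcripts were called higher and 142 lower, with a median log2 ratio of -0.79. In the background 3.41% were called higher and 0.294% lower, with a median of -0.57. Of 3475 sequences 382 were called higher and 19 lower, against 1.97% and 0.165%. Protein coding genes were 137 of the 142 lower transcripts and 12 of the 97 higher ones, out of 1156 among the 1391 compared. Of the 382 higher sequences 139 had A at position 10, or 36.4%, against 30.5% of all compared, and 75 were repeat-like, against 311 of the 3475. With sequences of 1 gene only, 14 transcripts were called higher, and with scaling to miRNA reads 21 were called lower.

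Nrros and Ky, whose reads matched hardly any other gene, were called higher in the Miwi2 KO. Nrros, a transmembrane regulator of TGF-beta in myeloid cells (chr16:32142785-32165594), had 531 and 406 reads in the fetal WT and KO, 1 and 77 in Dnmt3L WT and Dnmt3L KO of 10 dpp, and 1 and 441 in Miwi2 WT and Miwi2 KO. Of its reads 99.9% matched no other gene, and nearly all lay in the coding part. Ky, a muscle peptidase gene, went from 2 to 297 reads between the Miwi2 libraries. The largest fall was Zfp317, a zinc finger gene (chr9:19622102-19649731), from 23.7 to 1.6 RPM, or 0.068 times (0.051 to 0.088). A single 3′ UTR sequence gave 643 of its 1068 WT reads and 0 KO reads, and the first 20 bases of that sequence also lie in annotated miRNA genes. Cfap74, Dync1li1, Shmt1 and Tmcc3 followed, with 0.102 to 0.140 times the WT level.

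The Noct sequence at 284 had 57 and 215 reads at 16.5 dpc, 4 and 161 in Dnmt3L WT and Dnmt3L KO of 10 dpp, and 0 and 532 in Miwi2 WT and Miwi2 KO. With the WT count of 0 set to the floor of 3 reads, the Noct sequence at 284 was 214-fold higher in the Miwi2 KO (73.0 to 1043). The Noct sequence at 1377 had 2 and 133 reads in Dnmt3L WT and Dnmt3L KO and 15 and 960 in Miwi2 WT and Miwi2 KO, a ratio of RPM of 77.4 in the latter pair (46.7 to 139). The antisense sequence of 4 noncoding genes had 475 and 297 RPM at 16.5 dpc, 1.4 and 22.1 RPM in Dnmt3L WT and Dnmt3L KO of 10 dpp, and 3.3 and 107 RPM in Miwi2 WT and Miwi2 KO. All of them were higher in both KO libraries of 10 dpp than in either WT library of that age.

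An overlapping set was higher in both mutants. The 21 transcripts called higher in the Dnmt3L KO of 10 dpp were all among the 97 called higher in the Miwi2 KO, or 21.6% of the latter. Of all 1391 compared in the Miwi2 pair 6.97% were called higher. Of the sequences, 29 of the 30 higher in the Dnmt3L KO were among the 382 of the Miwi2 KO, or 7.59% of those, while 10.99% of all 3475 compared were higher there. Only 1 of the 21 transcripts was protein coding. With sequences of 1 gene only, 2 transcripts were higher in the Dnmt3L KO and 14 in the Miwi2 KO, so transcripts that share reads are not separate cases. Of the 622 lower transcripts of the Dnmt3L KO 81 were lower in the Miwi2 KO, or 13.0%, against 10.2% of all 1391 compared there. These 81 were 57.0% of the 142 of the Miwi2 KO, against 87.6% of all 710 compared in the Dnmt3L pair. Transcripts of the 142 that were not compared in the Dnmt3L pair could not count among the 81. The 2 comparisons share no library, and 709 transcripts were compared in both, of 1391 compared in the Miwi2 pair. The limit for a call came from their WT libraries.

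Sequences and transcripts called higher in the postnatal mutants were mostly those abundant in the fetal WT library. Of the 97 transcripts called higher in the Miwi2 KO, 95 had a higher level in the Dnmt3L WT of 16.5 dpc than in the Dnmt3L WT of 10 dpp, the first of which had no part in the call and the second only in its limit, against 23.1% of all 1391 compared. Their median levels were 12.5 RPM in the fetal WT, 1.8 RPM in the Miwi2 WT, and 14.6 RPM in its KO. For the 21 of the Dnmt3L KO, set against the Miwi2 WT of 10 dpp, the count was 21, against 12.1% of 710. Of the 382 sequences raised in the Miwi2 KO 325 were higher in the fetal WT than in the Dnmt3L WT of 10 dpp, against 35.1% of those compared. Of the 142 transcripts called lower in the Miwi2 KO, 4 were.

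Few exact sequences were found at both ages, but these held much of the reads. Of the 2646621 sequences, 2195485 (83.0%) were read in 1 library and 12966 in all 6. The latter held 28.4% and 26.99% of member reads in the fetal WT and KO, 41.7% and 65.5% in Dnmt3L WT and Dnmt3L KO of 10 dpp, and 34.0% and 51.7% in Miwi2 WT and Miwi2 KO. Sequences read at both ages were 6.81% of all and held 47.6% to 78.6% of member reads in each library. Sequences read only in the fetal libraries numbered 1562850 and those read only in the postnatal ones 903488. Of the former in the sense or antisense class 28.6% were antisense, against 5.94% of the latter. A miRNA start was found in 7.59% of the sequences in all 6 libraries and in 0.451% of those in 1. The part of miRNA starts in the reads that the former held is not given here.

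Between KO and WT of the same age most KO reads were shared at full depth. Of the KO reads 61.7% at 16.5 dpc, 80.0% in the Dnmt3L KO of 10 dpp and 75.0% in the Miwi2 KO had a sequence that was also read in the WT. Thinned to equal depth the shares were 49.0%, 73.9% and 66.6%, or 45.3%, 65.1% and 65.3% without miRNA starts. For comparison, the Miwi2 WT shared 53.3% of its thinned reads with the Dnmt3L WT of the same age and 33.9% with the Dnmt3L WT of 16.5 dpc. The Miwi2 KO shared 53.9% with the fetal WT after thinning, more than the 33.9% of its own WT. The Dnmt3L KO of 10 dpp shared 65.3% with it, or 54.0% without miRNA starts, against 39.7% and 34.5% for its WT.

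Germ cell and pathway genes were minor sources of members. The 15 germ cell genes summed to 12.7 and 10.1 RPM at 16.5 dpc, 11.9 and 1.3 RPM in Dnmt3L WT and Dnmt3L KO of 10 dpp, and 16.5 and 8.1 RPM in Miwi2 WT and Miwi2 KO, and 8 of them had reads in the Dnmt3L KO of 10 dpp against 14 in its WT. Zbtb16, a transcription factor of undifferentiated spermatogonia, was called lower in both KO libraries of 10 dpp, from 7.5 to 0.59 RPM and from 9.1 to 2.6 RPM. It had 0 reads in both fetal libraries. Zbtb16 thus gave 9.1 of the 16.5 RPM of the list in the Miwi2 WT and much of its fall in that KO. Dazl went the other way in the Miwi2 pair, from 1.7 to 2.2 RPM, with too few reads for a call. Pou5f1, a pluripotency factor of fetal germ cells, had 5.2 and 3.3 RPM there and 0 to 0.27 RPM later. In each of the 3 comparisons 1 germ cell gene had enough reads, and 0, 1 and 1 were called lower in the order given above, with none higher.

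The 28 genes of the piRNA and DNA methylation pathway summed to 21.7 and 21.9 RPM at 16.5 dpc, 48.6 and 5.8 RPM in Dnmt3L WT and Dnmt3L KO of 10 dpp, and 71.5 and 37.8 RPM in Miwi2 WT and Miwi2 KO. At 10 dpp most of it was Dnmt3a, a de novo DNA methyltransferase, with 32.2 and 3.4 RPM in Dnmt3L WT and Dnmt3L KO and 53.3 and 28.2 RPM in Miwi2 WT and Miwi2 KO. Of 2 genes with enough reads, Dnmt3a and Exd1, a piRNA biogenesis factor, both were called lower in the Dnmt3L KO of 10 dpp and neither in the Miwi2 KO. At 16.5 dpc 4 had enough reads and 0 were called.

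The 35 marker genes of Sertoli, Leydig, peritubular, blood and vessel cells summed to 1.06 to 4.81 RPM in each library, with 13 to 21 of them read, and none had 200 reads over the 6 libraries. In the Dnmt3L WT and KO of 10 dpp they summed to 2.35 and 1.06 RPM and in Miwi2 WT and Miwi2 KO to 2.56 and 3.63 RPM. Mitochondrial genes gave 0.68 to 2.19 RPM, with U first in 19.0% to 31.8% of their 26 to 27 nt reads, against 74.6% to 91.4% on germ cell genes. The part of cell make-up in the differences above was not tested.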

How the data were processed

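Per the labels' protocols, TruSeq libraries were made from total RNA after selection of 18 to 35 nt. The deposited files list each read sequence with its raw count. The submitters' processing notes name mm9. How reads were trimmed, aligned or filtered was not given in the sources used here. In all, a library held 28701563 to 47232494 reads, and 3 counts (0.0635 to 0.105 RPM) served as floor. PCR reads carry no molecular identifiers, so intervals (exact Clopper-Pearson or conditional binomial) cover counting error only.

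Reads of 24 to 32 nt were matched exactly, in either orientation, against 55450 GENCODE vM21 genes (GRCm38), each by its longest transcript, with Python 3.11.15 and numba 0.67.0. Classes were given in the order other small RNA, repeat-like (at least 10 genes other than pseudogenes), sense, antisense, unmatched. Reads of several genes were divided evenly. Matching and calls were tested on simulated data. edgeR 4.0.16 gave TMM factors for an alternative scaling.

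Named transcripts were the 10 highest, the 5 largest rises and falls per comparison and the members of the gene lists with at least 200 reads. Named sequences were the 2 most abundant per library and class and the 3 largest rises and falls per comparison. Those of chromosome 18, unmatched ones found mainly in 1 library and some others are not printed. The miRNA starts, the partner pair, and Gabpb2 and Klf13 were chosen after their values were seen. The members, lists and comparisons were chosen with earlier results of these data known. Alternative settings are given in the closing section.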

Additional observations from a re-analysis of the deposited data

Results flagged for a closer look

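For 5 measures the values went in opposite directions in the Dnmt3L KO at the 2 ages, and the difference between ages was not tested, since each group is 1 library. The log2 ratio of member abundance, KO against WT, was 0.088 at 16.5 dpc and -1.53 at 10 dpp. The share of reads with A at position 10 was lower than in the WT by 0.23 percentage points (-0.23) at 16.5 dpc and higher by 1.31 points at 10 dpp. Both ages had a higher KO share in 4 alternative settings, by 0.77 and 0.20 points over distinct sequences, 0.039 and 2.45 for 27 nt only, 0.61 and 1.29 without the 100 most abundant members, and 0.66 and 0.85 without miRNA starts. The share of 27 nt among members differed by 0.23 points at 16.5 dpc and by -6.80 points at 10 dpp, where both WT libraries differed by 4.17 points. The share of U-first reads differed by 1.13 points at 16.5 dpc and by -4.52 points at 10 dpp, and by -4.62 points between both WT libraries of 10 dpp. The repeat-like share differed by -0.39 points at 16.5 dpc and by 2.08 points at 10 dpp. At 16.5 dpc these differences were smaller in size than those between both WT libraries of 10 dpp, apart from the repeat-like share, where the latter was -0.28 points.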

How the results depend on the processing

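Each group is 1 library, so leaving out a replicate was not possible, and counting intervals are so narrow that most alternatives moved a value beyond them. No paired analysis was possible because each group is 1 library and no test was run. The cause of the changes below was not tested. The fall of member abundance in the Dnmt3L KO of 10 dpp kept its direction under each setting tried. Low depth in that library limits calls of single sequences.

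Log2 ratios of abundance are given in the order Dnmt3L KO against WT at 16.5 dpc, the same at 10 dpp, Miwi2 KO against WT, and Dnmt3L WT at 10 dpp against 16.5 dpc. They were 0.28, -1.76, -0.064 and -2.13 with scaling to reads of miRNA genes, and 0.078, -0.68, -0.26 and 0.14 for distinct sequences, where the last reversed. They were 0.081, -1.34, -0.25 and -0.89 for 26 nt only, and 0.094, -1.73, 0.0073 and -1.11 for 27 nt only, where the Miwi2 value reversed. Without the 100 most abundant members they were 0.10, -1.82, -0.31 and -1.07. Without miRNA starts, a setting chosen after seeing the data, they were 0.073, -1.86, -0.097 and -1.05.

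The KO difference in A at position 10 at 16.5 dpc reversed to 0.77 points over distinct sequences, 0.039 for 27 nt only, 0.61 without the 100 most abundant members and 0.66 without miRNA starts, and was -0.585 for 26 nt only. In the Dnmt3L KO of 10 dpp it was 0.20 over distinct sequences, 2.45 for 27 nt only and 0.85 without miRNA starts. In the Miwi2 KO it was 0.71 over distinct sequences, 1.495 for 26 nt, 5.57 for 27 nt, 3.20 without the 100 most abundant members and 4.33 without miRNA starts.

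The antisense difference over distinct sequences was 1.598 points in the Dnmt3L KO at either age and 0.45 in the Miwi2 KO. For sequences of 1 gene only it was -0.45 at 16.5 dpc, a reversal, 4.94 in the Dnmt3L KO of 10 dpp and 3.68 in the Miwi2 KO. The share of KO reads also read in the WT, in the order of the 3 KO libraries, was 58.3%, 76.3% and 72.4% for at least 2 reads in the WT, 49.0%, 73.9% and 66.6% after thinning, and 58.8%, 72.97% and 73.95% without miRNA starts.

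The limit for a call was computed anew in each setting below. With edgeR TMM factors 25 transcripts were higher and 5 lower at 16.5 dpc. In the Dnmt3L KO of 10 dpp 62 transcripts were higher and 189 lower, and 77 sequences were higher and 36 lower. In the Miwi2 KO 86 transcripts were lower. With scaling to reads of miRNA genes 2 transcripts were higher and 0 lower at 16.5 dpc, with 23 sequences higher and 3 lower. In the Dnmt3L KO of 10 dpp 17 sequences were then higher, and in the Miwi2 KO 21 transcripts were lower. For sequences of 1 gene only, 2 transcripts were higher in the Dnmt3L KO of 10 dpp and 14 in the Miwi2 KO. With no minimum, transcripts higher and lower numbered 291 and 399 at 16.5 dpc, 49 and 3519 in the Dnmt3L KO of 10 dpp, and 345 and 850 in the Miwi2 KO. With at least 50 reads, sequences higher and lower numbered 105 and 20, 52 and 800, and 591 and 86 in the same order.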
